A study of Mus musculus with 8 samples.

Results

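Amino acid transporter genes of 7 solute carrier families were followed in mouse embryonic fibroblasts (MEFs), cultured connective tissue cells of the embryo. The genes are the rows of the deposited bead array table named Slc1a, Slc3a, Slc6a, Slc7a, Slc36a, Slc38a or Slc43a followed by a number, apart from 1 gene that is not analysed here. These are 52 genes with 77 of the 25697 probes. TICAM knockout MEFs given c-di-GMP, TICAM knockout MEFs given DMSO, wild-type MEFs given c-di-GMP and wild-type MEFs given DMSO had 2 arrays each. The series text names the knocked-out gene as TICAM1, the gene of TRIF, through which Toll-like receptors 3 and 4 signal. c-di-GMP, a bacterial second messenger sensed through the adaptor STING, was transfected with a lipofection reagent to 8 µg/ml for 30 min. Control cells received an equal amount of DMSO, and RNA was taken 4 h after transfection from cells grown with 10% serum. The labels do not say whether the knockout or wild-type MEFs were 1 isolate or several, nor whether replicates were separate cultures, so the p-values reflect array-to-array spread alone, possibly technical.

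Amino acids cross the plasma membrane through carriers that couple them to sodium, exchange them for other amino acids or let them pass down their gradient. Slc3a2 encodes the 4F2 heavy chain, which carries several Slc7 light chains to the cell surface, among them xCT (Slc7a11), which takes up cystine in exchange for glutamate and feeds glutathione synthesis. When amino acids run short, the transcription factor ATF4 acts on several carrier genes through composite C/EBP-ATF elements, and the antioxidant factor NRF2 acts on Slc7a11. The series asked how wild-type and knockout cells respond to c-di-GMP. For the transporters this gives the comparison of genotypes under each treatment and of c-di-GMP with DMSO in each genotype.

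Array mean signals ran from 252.6 to 648.9 except for the second knockout DMSO array, at 225.9, here called the weak array. It stood apart. It detected 6468 probes, against 11254 to 11657 on the others, and 8 of the tested transporter genes, against 16 or 17. Across the normalized genes it correlated at 0.822 with the first knockout DMSO array, while the replicates of the other groups correlated at 0.980 to 0.992. Calls and differences of the transporter genes are therefore given with all 8 arrays and, where they were called in either fit or the array moves them, without it, and leaving it out leaves the knockout DMSO group with 1 array assumed to vary like the others. Ticam1 itself read 124.6 to 167.9 in knockout cells and 90.7 to 157.2 in wild-type cells by its tested probe, detected on 3 of 8 arrays. The probes could not be placed against the deletion, so Ticam1 checks no label.

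A probe counts as detected on an array when its deposited detection p is under 0.05. Of the 52 transporter genes, 24 had a probe detected on at least 2 arrays and were tested, and 28 were not. Of the 28, 20 were detected on 0 arrays and 8 on 1 array, with signals of 75.5 to 206.1 over their probes. The 24 comprise 5 of 7 Slc1 genes, the only Slc3 gene on the list, 6 of 17 Slc6 genes, 6 of 14 Slc7 genes, 5 of 8 Slc38 genes, 1 of 2 Slc43 genes and 0 of 3 Slc36 genes. Among the untested genes were Slc7a1, the cationic carrier CAT1, Slc1a5, the glutamine carrier ASCT2, and Slc36a1, a lysosomal proton-coupled carrier, none detected on any array. No probe in the set was named Slc7a5 or Slc43a1, the leucine carriers LAT1 and LAT3, so these are not analysed here. A gene below detection gives no sign of its level, only that the probe did not rise above the controls.

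Of the tested genes, 5 were detected on all 8 arrays: Slc1a6, Slc3a2, Slc6a6, Slc6a9 and Slc38a2. A further 6 were detected on 7, missing in each case only the weak array: Slc1a4, Slc6a8, Slc7a2, Slc7a3, Slc7a6 and Slc38a10. The other 13 were detected on 2 to 5 arrays. Slc1a3 and Slc6a15 passed the filter only through the 4 knockout arrays, Slc6a17 and Slc7a11 only through the 4 wild-type arrays, and Slc43a3 only through 2 arrays, those of c-di-GMP-treated wild-type cells. These 5 genes were tested only because they were high in some groups, so the counts below describe the tested genes and not the whole set.

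**Figure D1:**
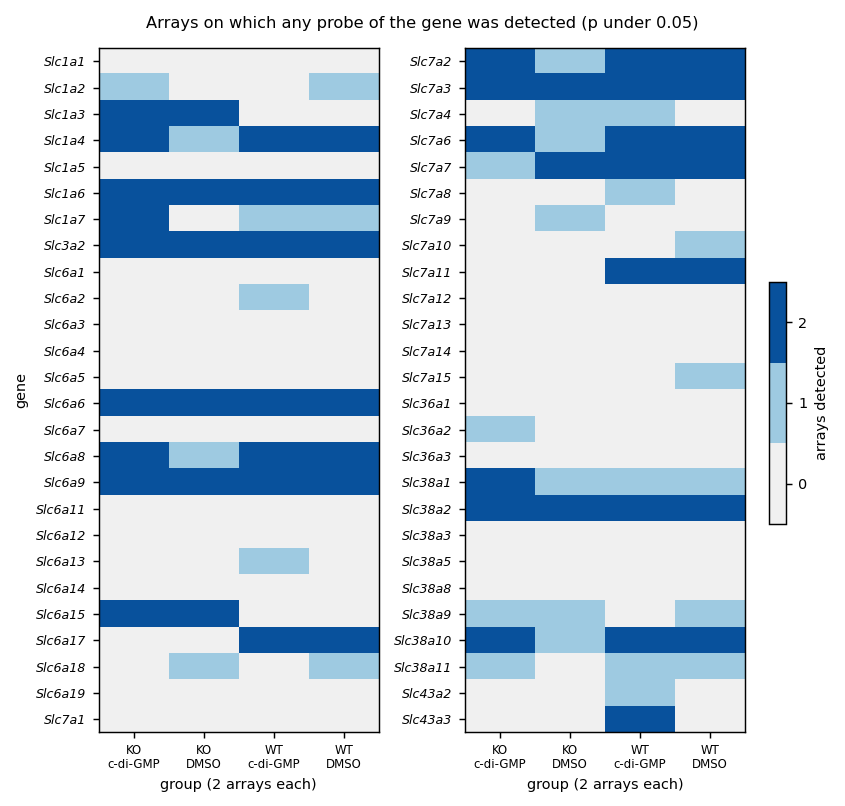
Number of arrays, 0 to 2, on which any probe of a gene was detected (deposited detection p under 0.05), for the 52 genes (rows) in the 4 groups (columns, 2 arrays each). Slc1a3 and Slc6a15 are dark in the knockout columns alone, and Slc6a17 and Slc7a11 in the wild-type columns alone.

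Promoters are shown for 4 genes on which the results turn: Slc1a3, higher in knockout cells, Slc7a11 and Slc1a4, lower in knockout cells, and Slc38a2, higher in knockout cells under c-di-GMP. Each is the 250 bases before the start, from RefSeq (GRCm38.p6), written 5′ to 3′ on the gene's strand. Capitals mark matches on either strand of TGATGNAA (C/EBP-ATF composite element), TGACNNNGC (antioxidant response element) or TTTC, 2 bases of any kind and TTTC (interferon-stimulated response element).
Slc1a3, chr15:8710808-8711057, minus strand: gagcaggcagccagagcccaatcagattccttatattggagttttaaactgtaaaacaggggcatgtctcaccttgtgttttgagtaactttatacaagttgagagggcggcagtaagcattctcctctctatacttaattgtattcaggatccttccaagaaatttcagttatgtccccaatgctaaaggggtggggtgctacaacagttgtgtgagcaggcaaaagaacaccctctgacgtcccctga
Slc7a11, chr3:50443614-50443863, minus strand: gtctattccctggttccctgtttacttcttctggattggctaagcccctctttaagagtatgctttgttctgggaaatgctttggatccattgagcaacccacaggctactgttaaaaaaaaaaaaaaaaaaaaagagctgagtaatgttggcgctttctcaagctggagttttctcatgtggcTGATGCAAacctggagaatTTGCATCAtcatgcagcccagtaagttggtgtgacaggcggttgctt
Slc1a4, chr11:20332714-20332963, minus strand: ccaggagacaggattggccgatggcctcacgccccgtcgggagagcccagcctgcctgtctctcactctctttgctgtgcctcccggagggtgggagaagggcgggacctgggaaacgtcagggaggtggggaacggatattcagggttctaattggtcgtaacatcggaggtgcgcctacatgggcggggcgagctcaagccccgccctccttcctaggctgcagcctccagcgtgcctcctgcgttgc
Slc38a2, chr15:96699729-96699978, minus strand: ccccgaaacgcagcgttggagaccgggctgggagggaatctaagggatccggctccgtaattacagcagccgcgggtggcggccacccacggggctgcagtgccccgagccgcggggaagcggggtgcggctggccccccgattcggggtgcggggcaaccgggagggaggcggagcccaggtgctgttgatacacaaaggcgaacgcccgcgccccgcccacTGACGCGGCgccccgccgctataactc
Slc7a11 holds TGATGNAA in both orientations, as TGATGCAA at 66 to 59 bases and TTGCATCA at 47 to 40 bases before its start. Slc38a2 holds 1 match of TGACNNNGC, TGACGCGGC, at 27 to 19 bases before its start. Slc1a3 and Slc1a4 hold no match of these 3. Of the 52 genes 35 matched the promoter table, 15 of them tested, with 54 promoters. TGATGNAA lies in 5.56% of these, in Slc7a11 and Slc7a7, and in 3.45% of all 32851 promoters. TGACNNNGC lies in 13% and 10.2%, and the interferon-stimulated element in 0% and 2.98%. An NF-kB-like run, GGG, 5 bases of any kind and CC on either strand, lies in 51.9% and 45.8% and can overlap the others. A match is a run of letters, and its absence says only that these letters are not in this window.

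Values below are normalized log2 intensities of the tested probe, on which a difference of 1 is a 2-fold change. Errors after a difference are the standard error (SE) of the limma model, and adjusted p-values are Benjamini-Hochberg over the 9559 genes tested. A gene is called when its adjusted p is under 0.05. An intensity depends on the probe as well as the transcript, so no probe is set against another. These are cultures measured in bulk, where fewer cells of a type and less RNA per cell cannot be told apart.

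Knockout and wild-type cells differed in the same 7 transporter genes under both treatments. Slc1a3, a glial-type glutamate carrier (GLAST), and Slc6a15, a carrier of branched neutral amino acids, were higher in knockout cells and not detected in wild-type cells. Slc6a17 and Slc7a11 were lower in knockout cells, where they were not detected, and Slc7a2, Slc1a4 and Slc6a9 were lower but still detected. Slc38a2, the sodium-coupled glutamine and alanine carrier SNAT2, was higher in knockout cells under c-di-GMP alone among these tests. The call of a difference under one treatment and not the other was tested through the difference of responses given further below.

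Under c-di-GMP 8 of 24 tested transporter genes were called, against 13.9% of all genes tested. Of these 3 were higher, against 5.8% of all genes, and 5 lower, against 8.1%. Without the weak array 14 were called, against 43.9% of all genes, 3 higher against 23.5% and 11 lower against 20.4%. Under DMSO 7 of 24 were called, against 12.7% of all genes, 2 higher against 5.22% and 5 lower against 7.46%. Without that array 9 were called, against 27.5%, 2 higher against 13.7% and 7 lower against 13.9%. The median log2 difference over the 24 was -0.14 under c-di-GMP, where all genes had 0.10, and -0.22 under DMSO, where all genes had -0.11. The 7 genes called under DMSO were all among the 8 called under c-di-GMP and in the same direction, which is 87.5% of the c-di-GMP list and 100% of the DMSO list. Over all genes 851 were shared, 64.1% of the c-di-GMP list and 70.2% of the DMSO list. Without the weak array 9 transporter genes were shared, 64.3% of the c-di-GMP list and 100% of the DMSO list, and over all genes 2264 were, 54% and 86.1%. With the other knockout DMSO array left out in its place, so that the weak array stood alone in its group, 13 transporter genes passed under c-di-GMP and 15 under DMSO, where 4277 and 6148 of all genes passed. The 2 comparisons share no array but were normalized and fitted together.

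**Figure D2:**
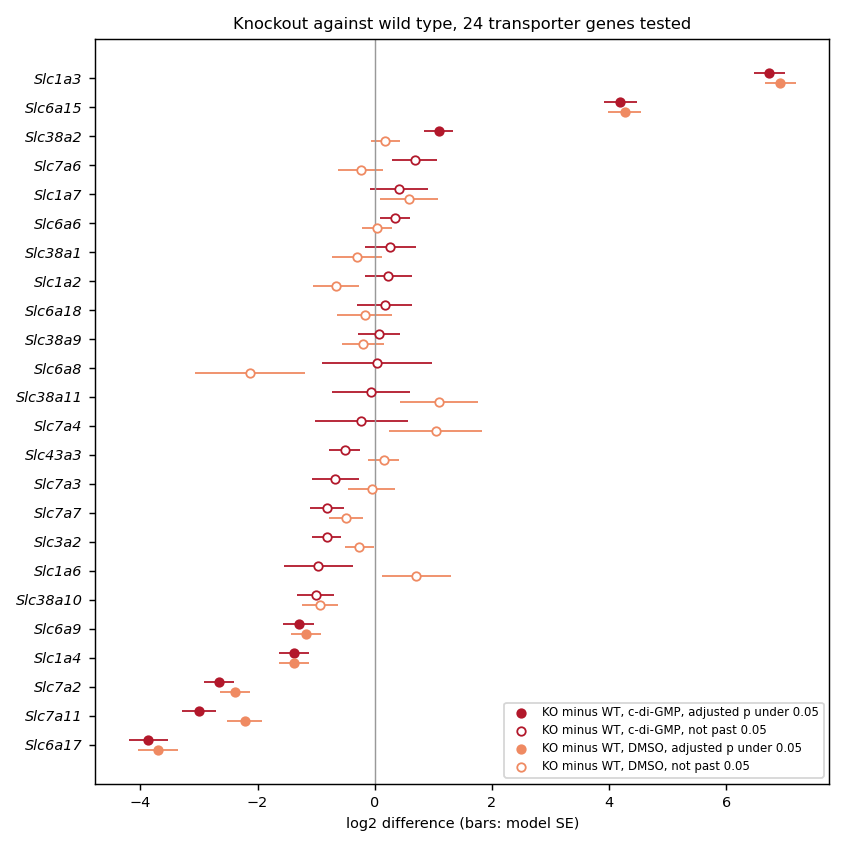
Log2 difference, knockout minus wild type (x axis; bars, model SE), for the 24 tested genes (rows), under c-di-GMP (dark red) and DMSO (orange), filled where adjusted p is under 0.05. The points of Slc1a3, Slc6a15, Slc6a17, Slc7a11 and Slc43a3 involve a group in which the tested probe was not detected, so they are no measure of size. The same holds for Slc7a7 and Slc6a18 under c-di-GMP, and for Slc1a7 and Slc38a11 under DMSO. It also holds for Slc1a2, Slc7a4 and Slc38a9 under both. The wide bar of Slc6a8 under DMSO comes with the weak array.

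Among the Slc1 carriers of glutamate and neutral amino acids, Slc1a3 read 11.47 and 11.50 in c-di-GMP-treated knockout cells and 11.62 and 11.83 in DMSO-treated knockout cells, against 4.73 and 4.76 in c-di-GMP-treated wild-type cells and 4.57 and 5.04 with DMSO. The genotypes did not overlap, and the weak array read as high as the other knockout arrays. Its deposited signals were 718.3 on that array and 3525 to 4432 on the other knockout arrays, against 83 to 116.9 on the wild-type arrays, where the detection p was 0.179 to 0.902. As wild-type cells have only a bound, Slc1a3 was at least 65.7-fold higher in knockout cells under c-di-GMP (limma adjusted p = 2.97e-05) and at least 79.1-fold higher under DMSO (adjusted p = 4.53e-05). These bounds set the bright group's mean against the higher of the dim gene's own value and the lowest detected value on each array. They carry no sampling error. Without the weak array they were at least 73.0-fold and at least 81.9-fold. These and the bounds given below hold for this normalization alone. Under c-di-GMP Slc1a3 differed by a fitted log2 6.73 here, 4.68 in the authors' normalized table and 4.46 without background correction. It was called under all 18 other settings tried in both comparisons.

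Slc1a4, the alanine, serine and cysteine carrier ASCT1, read 7.52 and 7.16 in c-di-GMP-treated knockout cells and 7.20 and 7.21 with DMSO, against 8.77 and 8.67 in c-di-GMP-treated wild-type cells and 8.47 and 8.70 with DMSO. All knockout arrays lay below all wild-type arrays, and the gene was detected everywhere but on the weak array. The log2 difference was -1.38 ± 0.26 under c-di-GMP (limma adjusted p = 0.0155) and -1.38 ± 0.26 under DMSO (adjusted p = 0.0181), and -1.40 ± 0.19 and -1.41 ± 0.24 without that array. The c-di-GMP call was lost without either knockout c-di-GMP array, either wild-type c-di-GMP array or the second wild-type DMSO array (adjusted p from 0.052 to 0.168), and the DMSO call without either wild-type DMSO array or either knockout c-di-GMP array (adjusted p from 0.0561 to 0.177). Median scaling ended both (adjusted p = 0.756 and 0.43), with differences of -0.83 and -1.97. Leaving the weak array out as well gave -0.83 and -1.09 and brought neither call back. Array weights (0.309) and a fit on only the arrays compared (0.182) ended the DMSO call. The weights, here and below, were equal within each group, 0.109 for both knockout DMSO arrays. They therefore discounted both of these alike and did not single out the weak array. Slc1a6, a glutamate carrier known from cerebellar neurons, read 5.51 and 6.03 in c-di-GMP-treated knockout cells and 5.89 and 7.81 with DMSO, against 6.67 and 6.79 in c-di-GMP-treated wild-type cells and 6.05 and 6.23 with DMSO. The value of 7.81 is the weak array, and the DMSO groups overlap. Its difference under c-di-GMP was -0.97 ± 0.59 (adjusted p = 0.357) and, without that array, -1.03 ± 0.22 (adjusted p = 0.00975). Slc1a2 and Slc1a7, also glutamate carriers, were detected on 2 and 4 arrays and were called under neither treatment.

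Slc3a2, the heavy chain, was detected on every array. It read 8.13 and 8.24 in c-di-GMP-treated knockout cells and 8.43 and 8.53 with DMSO, against 9.04 and 8.98 in c-di-GMP-treated wild-type cells and 8.85 and 8.64 with DMSO. The genotypes did not overlap under either treatment. The difference under c-di-GMP was -0.82 ± 0.24 (limma adjusted p = 0.0696), and passed without the weak array at -0.83 ± 0.17 (adjusted p = 0.00696). Under DMSO it was -0.26 ± 0.24 (adjusted p = 0.479), with a 95% interval of -0.83 to 0.31.

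Of its light chains, Slc7a11, the cystine and glutamate exchanger whose promoter is shown above, read 5.17 and 5.13 in c-di-GMP-treated knockout cells and 5.23 and 4.67 with DMSO, against 8.11 and 8.18 in c-di-GMP-treated wild-type cells and 7.36 and 6.97 with DMSO. It was not detected on any knockout array, with detection p from 0.0739 to 0.728, and was detected on every wild-type array. It was lower in knockout cells by at least 6.72-fold under c-di-GMP (limma adjusted p = 0.00122) and by at least 1.65-fold under DMSO (adjusted p = 0.00501). The bound under DMSO is small because the lowest detected value was 7.53 on the weak array, against 5.36 to 5.45 on the others, and without that array the bounds were at least 7.37-fold and at least 3.79-fold. The c-di-GMP call was lost under median scaling (adjusted p = 0.113). The DMSO call was lost under median scaling (adjusted p = 0.279), array weights (0.0933), a fit on only the arrays compared (0.111) and without the first wild-type DMSO array (0.0665).

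Slc7a7, the light chain y+LAT1, which exchanges cationic for neutral amino acids, read 5.17 and 4.80 in c-di-GMP-treated knockout cells and 5.41 and 5.69 with DMSO, against 6.02 and 5.56 in c-di-GMP-treated wild-type cells and 6.00 and 6.07 with DMSO. All knockout values lay below the wild-type values of the same treatment. The tested probe was detected on neither c-di-GMP-treated knockout array, on 1 of 2 knockout DMSO arrays and on all 4 wild-type arrays. Its fitted difference under c-di-GMP, -0.81 ± 0.29, is thus against a probe below background and gives no size. It had an adjusted p of 0.127 in limma, and of 0.0213 without the weak array. Its other probe, detected on 1 of 2 arrays in each group, was called in neither fit. Slc7a6, the light chain y+LAT2, read 7.90 and 8.08 in c-di-GMP-treated knockout cells, against 6.79 and 7.82 in c-di-GMP-treated wild-type cells, and the difference of 0.69 ± 0.38 did not pass (adjusted p = 0.314).

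Among the cationic amino acid carriers, Slc7a2 (CAT2), which brings in arginine, read 6.13 and 5.96 in c-di-GMP-treated knockout cells and 5.61 and 5.22 with DMSO, against 8.75 and 8.67 in c-di-GMP-treated wild-type cells and 7.77 and 7.84 with DMSO. The genotypes lay far apart under both treatments, and the 5.22 is the weak array, where the gene was not detected. The log2 difference was -2.66 ± 0.26 under c-di-GMP, 6.33-fold lower (limma adjusted p = 0.00112), and -2.39 ± 0.26 under DMSO (adjusted p = 0.00221), where 1 of the 2 knockout arrays detected it. Without that array it was -2.75 ± 0.16 and -2.31 ± 0.20. The calls were lost under median scaling (adjusted p = 0.176 under c-di-GMP and 0.166 under DMSO), and the DMSO call in a fit on only the arrays compared (adjusted p = 0.0774). Its other probe was detected on no knockout array, on both c-di-GMP-treated wild-type arrays and on 1 wild-type DMSO array. It was called lower in knockout cells under c-di-GMP (adjusted p = 0.0103 over all detected probes) and not under DMSO (adjusted p = 0.264).

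Slc7a3 (CAT3) read 5.86 and 5.66 in c-di-GMP-treated knockout cells and 5.84 and 7.06 with DMSO, against 6.48 and 6.39 in c-di-GMP-treated wild-type cells and 6.49 and 6.52 with DMSO. Only the weak array, where it was not detected, lay above the wild-type values. With all 8 arrays the differences were -0.67 ± 0.41 under c-di-GMP and -0.05 ± 0.41 under DMSO (limma adjusted p = 0.353 and 0.938). Without that array they were -0.72 ± 0.17 (adjusted p = 0.0122) and -0.71 ± 0.20 (adjusted p = 0.0414). Its other probe was detected on the 2 knockout DMSO arrays alone, where it read 5.49 and 7.67, against 4.78 and 5.08 in wild-type cells with DMSO, so the 2 probes do not give 1 direction. Slc7a4, a related gene, was detected on 2 arrays and was not called.

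The Slc6 carriers move amino acids, osmolytes and neurotransmitters with sodium and chloride. Slc6a15 read 9.04 and 8.69 in c-di-GMP-treated knockout cells and 8.64 and 9.09 with DMSO, against 4.62 and 4.73 in c-di-GMP-treated wild-type cells and 4.65 and 4.56 with DMSO. The knockout values stood well above the wild-type values, whose detection p was 0.501 to 0.929. The gene was at least 10.7-fold higher in knockout cells under c-di-GMP (limma adjusted p = 0.000248) and at least 10.9-fold higher under DMSO (adjusted p = 0.000329), or at least 11.8-fold and at least 10.3-fold without the weak array. The DMSO call was lost under median scaling (adjusted p = 0.0956). Its other probe was detected on no wild-type array, on both c-di-GMP-treated knockout arrays and on the first knockout DMSO array. It read 6.52 and 5.92 in c-di-GMP-treated knockout cells and 6.05 and 7.22 with DMSO, against 4.89 and 4.67 in c-di-GMP-treated wild-type cells and 4.53 and 5.17 with DMSO. It did not pass over all detected probes (adjusted p = 0.0999 under c-di-GMP and 0.0564 under DMSO), and did without the weak array (adjusted p = 0.00612 and 0.043).

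Slc6a17, a vesicular carrier of neutral amino acids known from neurons, ran the other way. It read 5.16 and 5.23 in c-di-GMP-treated knockout cells and 5.10 and 5.98 with DMSO, against 8.99 and 9.14 in c-di-GMP-treated wild-type cells and 9.28 and 9.20 with DMSO. It was not detected on any knockout array and was lower there by at least 12.7-fold under c-di-GMP (limma adjusted p = 0.000705) and at least 6.96-fold under DMSO (adjusted p = 0.00107). Without the weak array the bounds were at least 14-fold and at least 16.3-fold. The DMSO call was lost in a fit on only the arrays compared (adjusted p = 0.0544). Slc6a9, the glycine carrier GlyT1, read 8.03 and 7.81 in c-di-GMP-treated knockout cells and 8.10 and 8.48 with DMSO, against 9.25 and 9.20 in c-di-GMP-treated wild-type cells and 9.43 and 9.50 with DMSO. Detected on every array, it was lower on all knockout arrays, with differences of -1.30 ± 0.26 under c-di-GMP (adjusted p = 0.0193) and -1.18 ± 0.26 under DMSO (adjusted p = 0.0312), or -1.31 ± 0.17 and -1.38 ± 0.20 without that array. Both calls were lost when any 1 of the 6 arrays other than those of knockout DMSO was left out, with adjusted p from 0.0619 to 0.185 under c-di-GMP and from 0.0698 to 0.224 under DMSO. Median scaling ended both (adjusted p = 0.794 and 0.445), with differences of -0.75 and -2.05. Leaving the weak array out as well gave -0.75 and -1.05 and brought neither call back. Array weights (0.325) and a fit on only the arrays compared (0.24) ended the DMSO call.

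Slc6a6, the taurine carrier, was detected on every array, and neither genotype difference passed. It read 12.60 and 12.58 in c-di-GMP-treated knockout cells and 12.67 and 12.30 with DMSO, against 12.28 and 12.20 in c-di-GMP-treated wild-type cells and 12.47 and 12.41 with DMSO. The difference under c-di-GMP was 0.34 ± 0.25 (limma adjusted p = 0.455), with a 95% interval of -0.26 to 0.94. Slc6a18, a renal carrier of neutral amino acids, was not called under either treatment. Slc6a8, the creatine carrier, read 10.64 and 10.51 in c-di-GMP-treated knockout cells and 10.14 and 6.80 with DMSO, against 10.56 and 10.52 in c-di-GMP-treated wild-type cells and 10.43 and 10.78 with DMSO. The 6.80 is the weak array, where the signal was 205.3 and not detected. The DMSO difference of -2.13 ± 0.94 (adjusted p = 0.18) was -0.46 ± 0.22 without it (adjusted p = 0.171).

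Of the Slc38 carriers of glutamine and small neutral amino acids, Slc38a2 read 11.76 and 11.57 in c-di-GMP-treated knockout cells and 12.05 and 11.85 with DMSO, against 10.49 and 10.66 in c-di-GMP-treated wild-type cells and 11.86 and 11.68 with DMSO. Under c-di-GMP all knockout values lay above the wild-type values, and under DMSO the genotypes overlapped. The difference was 1.09 ± 0.25 under c-di-GMP, 2.13-fold (limma adjusted p = 0.0314), and 0.18 ± 0.25 under DMSO (adjusted p = 0.639, 95% interval -0.41 to 0.78). Without the weak array it was 1.10 ± 0.17 (adjusted p = 0.00257) and 0.28 ± 0.21 (adjusted p = 0.362). The c-di-GMP call was lost when any 1 of the 6 arrays other than those of knockout DMSO was left out (adjusted p from 0.0842 to 0.246), under median scaling (0.66) and with a replicate block (0.0562). Of its other detected probes, the second was detected on 1 of 2 c-di-GMP-treated wild-type arrays. The other probes differed by 0.21 ± 0.46 and 0.84 ± 0.51 under c-di-GMP, positive as well but not past the test. Under DMSO they stood at -0.94 ± 0.46 and -1.18 ± 0.51, the opposite sign to the tested probe, and at -0.22 ± 0.21 and -0.54 ± 0.41 without the weak array.

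Slc38a10, a carrier of glutamine and other amino acids, read 6.44 and 6.68 in c-di-GMP-treated knockout cells and 6.64 and 6.94 with DMSO, against 7.24 and 7.89 in c-di-GMP-treated wild-type cells and 7.62 and 7.82 with DMSO. Every knockout value was below every wild-type value. With all 8 arrays the differences of -1.01 ± 0.31 and -0.94 ± 0.31 did not pass (limma adjusted p = 0.0831 under c-di-GMP and 0.0984 under DMSO), and without the weak array those of -1.05 ± 0.25 and -1.12 ± 0.31 did (adjusted p = 0.0144 and 0.0359). Slc38a1 (SNAT1), Slc38a9, a lysosomal arginine sensor and carrier, and Slc38a11 were detected on 5, 2 and 3 arrays and were called in neither fit. Slc43a3, the gene of a facilitative carrier best known for purine bases, was not detected in knockout cells and read 5.21 and 4.88 there with c-di-GMP, against 5.50 and 5.62 in c-di-GMP-treated wild-type cells. The bound was at least 1.12-fold lower, and the difference did not pass (limma adjusted p = 0.271), though it passed without that array.

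**Figure D3:**
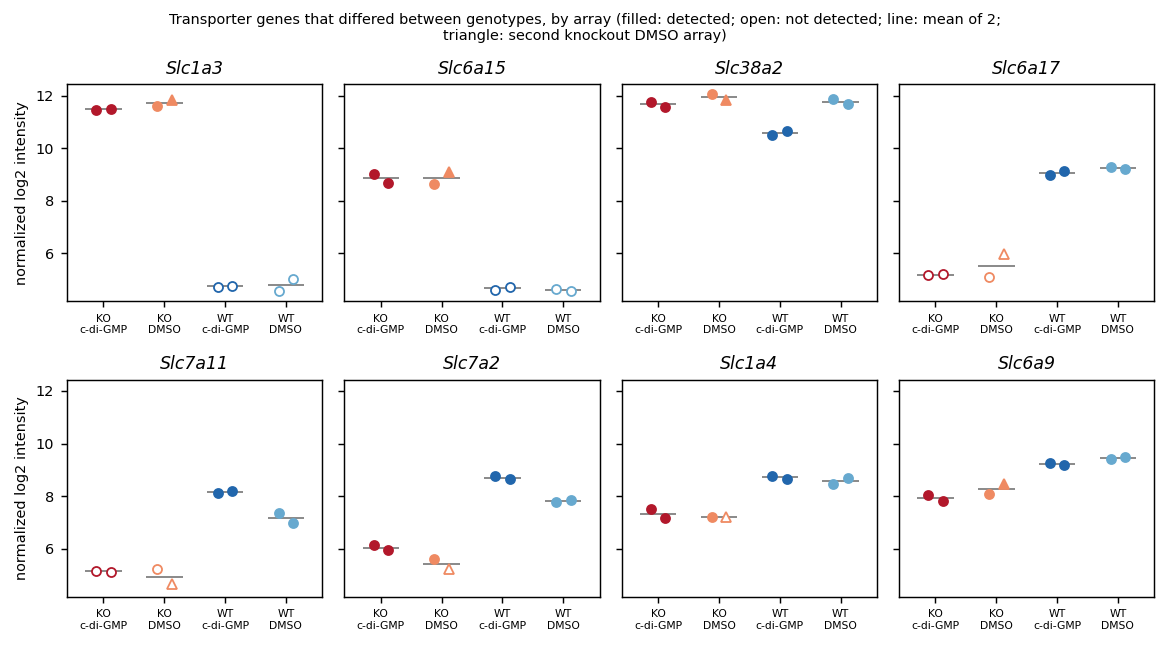
Normalized log2 intensity (y axis) of the 8 genes called between genotypes, by group (x axis), 2 arrays each (points, filled where detected, open where not; line, mean of 2; triangle, second knockout DMSO array). Slc1a3 and Slc6a15 are open in wild-type cells and Slc6a17 and Slc7a11 in knockout cells, and Slc38a2 is lowest in c-di-GMP-treated wild-type cells.

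Markers of other cells differed between genotypes alongside these genes. Counts of markers called stand against the shares of all genes given above, 13.9% under c-di-GMP and 12.7% under DMSO with all 8 arrays. Of 11 leukocyte markers on the array 9 were detected on at least 1 array, and Ptprc and Itgam on 0. Their summed normalized intensity was 329 to 361 in c-di-GMP-treated knockout cells and 364 to 556 with DMSO, against 9302 to 9919.7 in c-di-GMP-treated wild-type cells and 11769 to 12587 with DMSO. Of the 9 tested, 6 were lower in knockout cells under c-di-GMP, against 8.1% of all genes, and 5 under DMSO, against 7.46%. Among them were Lyz1, Lyz2, Adgre1 and Laptm5, none detected in knockout cells. These passed the filter only through the wild-type arrays, where they were high, so the counts describe the tested markers alone. With the weak array left out 8 and 6 were lower. The part of the cells that carry these markers in the lower Slc7a11, Slc7a2, Slc6a17, Slc1a4 and Slc6a9 was not tested. Of 7 neural and glial markers Sox2, Gfap and Olig2 were detected on 0 arrays, and the sum was 586 to 591 in c-di-GMP-treated knockout cells and 559 to 585 with DMSO, against 545 to 586 in c-di-GMP-treated wild-type cells and 478 to 654 with DMSO. Map2 was higher in knockout cells under c-di-GMP and Nes lower under DMSO, and without the weak array both were called under both treatments. Their part in the higher Slc1a3 and Slc6a15 was not tested. All 12 fibroblast markers on the array were detected in both genotypes, with 2 higher and 3 lower in knockout cells under c-di-GMP and 3 higher and 2 lower under DMSO, or 4 higher and 5 lower and 4 higher and 4 lower without the weak array. With all 8 arrays Pdgfra and Thy1 were higher and Col1a1 and Col5a2 lower under both treatments. The sum of the 12 was 30498 to 33172 in c-di-GMP-treated knockout cells and 31538 to 56991 with DMSO, against 36374 to 43575 in c-di-GMP-treated wild-type cells and 34725 to 39489 with DMSO. Of the epithelial and endothelial markers none was called, of the muscle markers 1 was lower under c-di-GMP and 2 under DMSO, and of the cartilage, fat and bone markers Sox9 was higher and Pparg lower under both, and these counts were the same without the weak array.

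Other genes of amino acid handling were counted by list. Their counts stand against 13.9% of all genes called under c-di-GMP and 12.7% under DMSO, or 43.9% and 27.5% without the weak array. Of 23 tested ATF4 and amino acid starvation targets, 2 were higher and 4 lower in knockout cells under c-di-GMP, and 1 higher and 4 lower under DMSO, with medians of -0.14 under c-di-GMP and -1.04 under DMSO, where all genes had 0.10 and -0.11. The lower genes under both were Nupr1 (-3.16 ± 0.30 and -3.43 ± 0.30), Vldlr (-1.87 ± 0.25 and -2.26 ± 0.25) and Ddit3 (-1.07 ± 0.25 and -1.51 ± 0.25), with Atf3 under c-di-GMP and Trib3 under DMSO, each detected on 1 of 2 knockout arrays there. Psat1, an enzyme of serine synthesis, was higher under both, by 1.17 ± 0.30 and 1.47 ± 0.30. Ddit4 was the other higher gene under c-di-GMP, by 1.78 ± 0.34, and differed by 0.12 under DMSO (limma adjusted p = 0.829). The list thus did not move one way. Leaving out the weak array gave 3 higher and 6 lower under c-di-GMP and 1 higher and 7 lower under DMSO, with medians of -0.15 and -0.45.

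Of 14 genes of cystine and glutathione metabolism and NRF2 response, 1 was lower under c-di-GMP, Gclc, the catalytic subunit of the first glutathione enzyme (-1.31 ± 0.26), and 2 under DMSO, Gclc (-1.05 ± 0.26) and Gss, the second enzyme (-1.89 ± 0.44). The medians were -0.46 and -0.49. Under DMSO both genes were detected on 1 of 2 knockout arrays. With the weak array left out 5 were lower under c-di-GMP, and 1 was higher and 4 lower under DMSO. With all 8 arrays these counts stand against 13.9% of all genes under c-di-GMP and 12.7% under DMSO. A link to the lower Slc7a11, which supplies that pathway with cystine, was not tested. Of 9 genes for enzymes of arginine, glutamine and tryptophan, Ass1, which makes argininosuccinate on the way to arginine, was higher under both treatments by 2.14 ± 0.37 and 2.07 ± 0.37. Nos2, which uses arginine to make nitric oxide, was not detected in c-di-GMP-treated knockout cells and was at least 2.33-fold lower there (adjusted p = 0.0169). Their medians were 0.49 and -0.01, and without the weak array 3 were higher and 1 lower under c-di-GMP and 2 higher under DMSO. Of 19 aminoacyl-tRNA synthetase genes 0 were called under c-di-GMP and 2 were higher under DMSO, Kars (1.43 ± 0.27) and Vars (1.49 ± 0.32), with medians of 0.08 and -0.29. With that array left out 3 were higher and 1 lower under each treatment, with medians of 0.08 and 0.05. Of 24 genes of lysosomal sensing and mTORC1, Castor1, an arginine sensor, was lower under both (-2.38 ± 0.39 and -2.41 ± 0.39), with medians of -0.07 and -0.18. Leaving that array out gave 4 higher and 4 lower under c-di-GMP and 1 higher and 3 lower under DMSO. Of 13 other solute carriers, 2 were lower under c-di-GMP, the peptide and histidine carrier Slc15a3 and the glucose carrier Slc2a6, and 1 under DMSO, Slc15a3, with medians of 0.25 and -0.38. Slc15a3 was not detected in knockout cells and was lower there by at least 6.11-fold under c-di-GMP (adjusted p = 0.000922) and at least 1.94-fold under DMSO (adjusted p = 0.00266). With that array left out 5 were higher and 2 lower under c-di-GMP and 1 higher and 2 lower under DMSO, with medians of 0.26 and 0.12.

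With c-di-GMP relative to DMSO no transporter gene was called in knockout cells with all 8 arrays or without the weak array, and in wild-type cells none was called with all 8 arrays and 4 without the weak array. In wild-type cells Slc38a2 read lower with c-di-GMP, and Slc7a2 and Slc7a11, both lower in knockout cells, read higher, as did Slc43a3. In knockout cells none of these passed. The difference between the responses passed for 0 of the 24 genes, so no response was shown to depend on genotype.

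In knockout cells limma called 0 of 24 transporter genes, against 0% of all genes tested, and 1 had an unadjusted p under 0.05. It also called 0 when the weak array was left out, against 0% of all genes, and 1 again had an unadjusted p under 0.05. In wild-type cells it called 0 of 24, against 0.596% of all genes, with 4 at an unadjusted p under 0.05, and 4 without that array, against 5.51% of all genes, 3 higher against 3.7% and 1 lower against 1.81%. The difference of responses was called for 0 of 24, against 0.0418% of all genes and 1 at an unadjusted p under 0.05, and for 0 without that array, against 0.502% and 3 at an unadjusted p under 0.05. The median over the 24 was -0.14 in knockout cells, -0.05 in wild-type cells and -0.15 for the difference, where all genes had 0.10, -0.06 and 0.15. The wild-type differences moved little when the array was left out, while their SE fell, for Slc38a2 to 0.17 without that array, against 0.25 with it. With the weak array alone in the knockout DMSO group, 11 genes passed in the knockout response and 6 for the difference, where 5517 and 4662 of all genes passed.

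Slc38a2 read 11.76 and 11.57 after c-di-GMP and 12.05 and 11.85 after DMSO in knockout cells, and 10.49 and 10.66 after c-di-GMP and 11.86 and 11.68 after DMSO in wild-type cells. In both genotypes the c-di-GMP arrays lay below the DMSO arrays. In wild-type cells the difference was -1.20 ± 0.25 (limma adjusted p = 0.166) with all 8 arrays and -1.20 ± 0.17 (adjusted p = 0.0126) without the weak array. In knockout cells it was -0.29 ± 0.25 (adjusted p = 0.557) and -0.39 ± 0.21 (adjusted p = 1.00). The responses differed by 0.91 ± 0.35 (adjusted p = 0.71, 95% interval 0.07 to 1.75) and by 0.82 ± 0.27 without that array (adjusted p = 0.324).

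Slc38a2 has 3 detected probes. The tested one, ILMN_1244123, gave -1.20 ± 0.26 for the wild-type response when every probe was tested on its own. ILMN_2955671 gave -0.40 ± 0.46, from 10.90 and 10.83 after c-di-GMP and 11.22 and 11.30 after DMSO. ILMN_2721692 gave -1.13 ± 0.51, from 5.13 and 6.06 after c-di-GMP and 6.73 and 6.72 after DMSO. The 5.13 was not detected (detection p of 0.114), so this difference rests in part on a reading at background. All 3 probes read lower on both c-di-GMP arrays than on both DMSO arrays of wild-type cells, by unequal amounts. In knockout cells the other probes stood at 0.75 ± 0.46 and 0.89 ± 0.51, the opposite sign to the tested probe, and at 0.03 ± 0.21 and 0.23 ± 0.41 without the weak array, none past the test. Without the weak array only ILMN_1244123 passed (adjusted p = 0.0158, against 0.261 and 0.109 for the other probes).

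Slc7a2 read 6.13 and 5.96 after c-di-GMP and 5.61 and 5.22 after DMSO in knockout cells, and 8.75 and 8.67 after c-di-GMP and 7.77 and 7.84 after DMSO in wild-type cells. The c-di-GMP arrays lay above the DMSO arrays in both genotypes. The wild-type difference was 0.90 ± 0.26 (limma adjusted p = 0.364), and 0.92 ± 0.16 without the weak array (adjusted p = 0.0261). The knockout difference was 0.63 ± 0.26 (adjusted p = 0.529), and 0.48 ± 0.20 without that array (adjusted p = 1.00). The responses differed by -0.27 ± 0.36, with a 95% interval of -1.14 to 0.60. Its other detected probe read 6.97 and 6.82 after c-di-GMP and 5.30 and 6.14 after DMSO in wild-type cells, a difference of 1.17 ± 0.36 (adjusted p = 0.469), and 1.25 ± 0.30 without that array (adjusted p = 0.0731), with the 5.30 not detected. In knockout cells that probe was not detected.

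**Figure D4:**
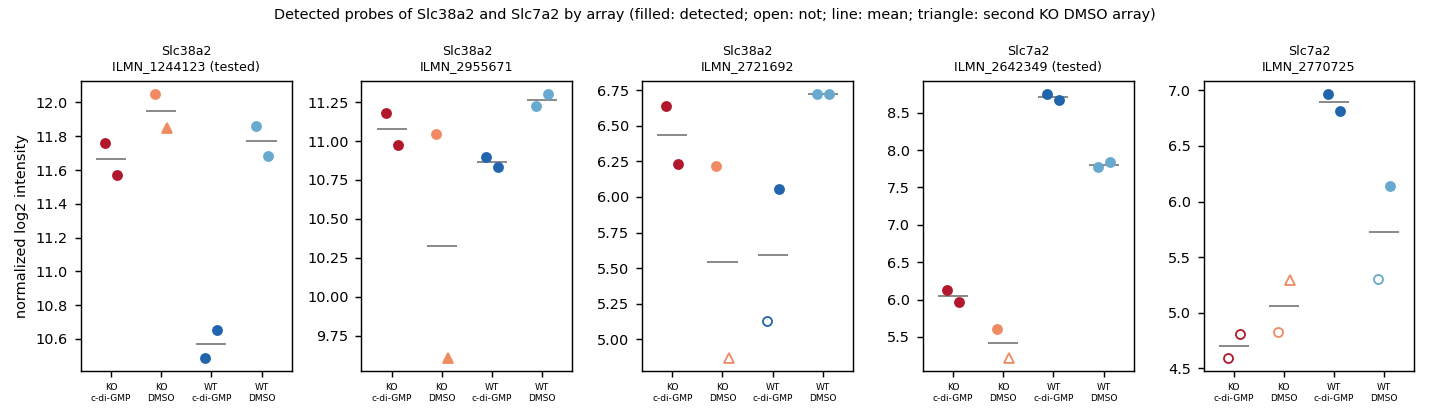
Normalized log2 intensity (y axis, own scale in each panel) of the 3 detected probes of Slc38a2 and the 2 of Slc7a2, by group (x axis; points, arrays, filled where detected; line, mean; triangle, second knockout DMSO array). In wild-type cells every Slc38a2 probe is lower with c-di-GMP than with DMSO and both Slc7a2 probes are higher.

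Slc7a11 was not detected in knockout cells, where it read 5.17 and 5.13 after c-di-GMP and 5.23 and 4.67 after DMSO, and read 8.11 and 8.18 after c-di-GMP and 7.36 and 6.97 after DMSO in wild-type cells. The wild-type groups did not overlap. The wild-type difference was 0.98 ± 0.30 (limma adjusted p = 0.401), and 1.00 ± 0.19 without the weak array (adjusted p = 0.032). The difference of responses rests on knockout readings at background and did not pass (adjusted p = 0.71, and 0.233 without that array). Slc43a3 read 5.50 and 5.62 with c-di-GMP in wild-type cells, the only arrays on which it was detected, and 4.79 and 4.69 with DMSO. The bound was at least 1.1-fold higher with c-di-GMP, and the difference did not pass (limma adjusted p = 0.474). Slc43a3 passed without that array, with a bound of at least 1.11-fold. Its detection p was 0.0389 and 0.0288 with c-di-GMP, and the filter took it in through these arrays alone.

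The other transporter genes did not pass in either response. In knockout cells Slc6a8 stood at 2.10 ± 0.94 (limma adjusted p = 0.529) and Slc1a6 at -1.08 ± 0.59 (adjusted p = 0.529), both values that came with the weak array and were 0.43 ± 0.22 and -0.13 ± 0.27 without it. Slc7a7 stood at -0.57 ± 0.29 (adjusted p = 0.529) and -0.47 ± 0.28 (adjusted p = 1.00). Slc1a3, bright in knockout cells, differed by -0.25 ± 0.27 there, with a 95% interval of -0.88 to 0.39, and Slc6a15 -0.00 ± 0.28. Slc3a2 differed by -0.30 ± 0.24 in knockout cells and 0.27 ± 0.24 in wild-type cells, and Slc6a6 by 0.10 ± 0.25 and -0.20 ± 0.25. The widest SE in wild-type cells, 0.94 for Slc6a8, is that of the shared spread and not of the wild-type arrays, which read 10.56 and 10.52 after c-di-GMP and 10.43 and 10.78 after DMSO.

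**Figure D5:**
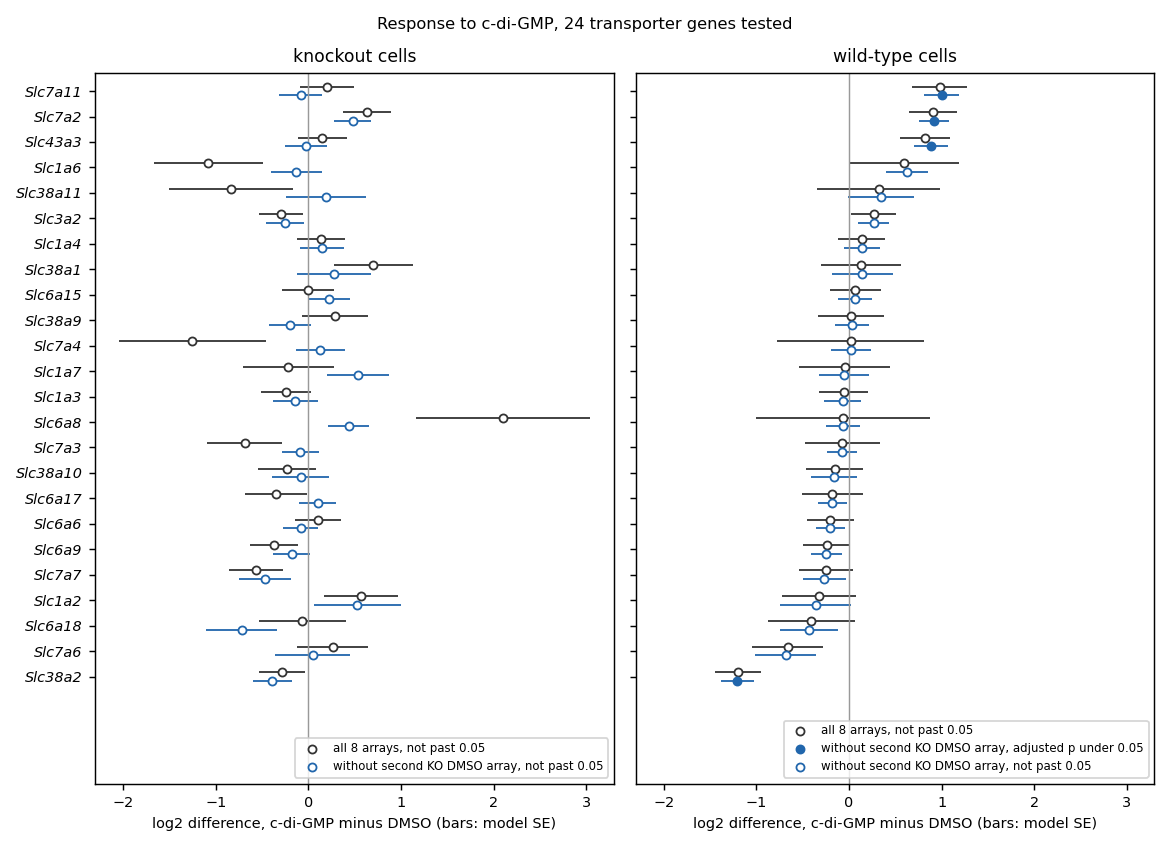
Log2 difference, c-di-GMP minus DMSO (x axis; bars, model SE), for the 24 tested genes (rows) in knockout cells (left) and wild-type cells (right), with all 8 arrays (black) and without the weak array (blue), filled where adjusted p is under 0.05. Filled points appear for Slc38a2, Slc43a3, Slc7a2 and Slc7a11 in wild-type cells without that array.

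In the other amino acid lists limma called 0 genes in either response and 0 for their difference with all 8 arrays, and 0 to 3 genes a list had an unadjusted p under 0.05. The smallest p among ATF4 targets in wild-type cells belonged to Atf3, which encodes a stress-induced factor, and Ddit4, which encodes the mTORC1 inhibitor REDD1. Atf3 was not detected there with DMSO and was at least 4.13-fold higher with c-di-GMP (adjusted p = 0.053), and Ddit4 differed by -2.18 ± 0.34 (adjusted p = 0.0581). Both passed without the weak array (adjusted p = 0.00707 and 0.00136), and so did the difference of responses for Ddit4, at 2.13 ± 0.27 (adjusted p = 0.0344), against 1.66 ± 0.48 with all arrays (adjusted p = 0.702). Nos2, not detected in wild-type cells with DMSO and at least 2.29-fold higher with c-di-GMP, also passed without it, with adjusted p = 0.00733, against 0.178 with all arrays. Gclm, the other subunit of the first glutathione enzyme, stood at 0.79 ± 0.38 (adjusted p = 0.859).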

How the data were processed

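Expression was measured on Illumina bead arrays, 1 per sample, 2 in each of 4 groups. The authors deposited a table of probe intensities without normalization and a detection p-value for each probe and array, per the file headers, exported with GenomeStudio 2010.2, per the submitters' processing notes. No source used here says how background was handled at export. From these intensities, log2 values were computed with neqc in limma 3.58.1 (R 4.3.3): normexp, with the background estimated by means of detection p-values, an offset of 16 and quantile normalization. The authors' deposited normalized intensities served as an alternative. Probe names were updated through RefSeq. Probes detected on fewer than 2 of 8 arrays (detection p of 0.05 or more) were left out, and 1 probe a gene was kept, that with the highest mean, which left 9559 genes. limma fitted 1 mean per group over all 8 arrays (4 residual and 2.77 prior degrees of freedom), two-sided, with Benjamini-Hochberg adjustment over all genes in each comparison and a threshold of 0.05. The small number of arrays limits the precision. The fit was tested on simulated data with known changes, where it missed most of the smallest and some of the largest. A gene not called may therefore still differ.

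The members and lists were chosen with earlier results of these data known. The genes named with values are those called in any comparison with or without the second knockout DMSO array, those with the lowest p in each comparison, a fixed set of main carriers and those whose probes disagree. The lists were ATF4 and amino acid starvation targets, aminoacyl-tRNA synthetases, genes of cystine, glutathione and NRF2, of lysosomal sensing and mTORC1, of arginine, glutamine and tryptophan enzymes, and other solute carriers. Alternatives were other normalizations and filters, array weights, separate fits, a replicate block and each array left out. A marker gene of the leukocyte list and 1 of the neural and glial list are not reported here.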

Additional observations from a re-analysis of the deposited data

How the results depend on the processing

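Of the genes called between genotypes none changed direction under any alternative, and Slc1a3 was called under all 18 in both treatments. With 1 array left out, the transporter genes called ranged from 5 to 14 under c-di-GMP, where all arrays gave 8, from 4 to 15 under DMSO, where they gave 7, from 0 to 4 in the wild-type response, from 0 to 11 in the knockout response and from 0 to 6 for the difference of responses, where they gave 0. The 15, 11 and 6 came without the first knockout DMSO array, which left the weak array alone in its group. The 4 calls of the wild-type response came without either knockout DMSO array. Median scaling in place of quantiles gave 3 calls under c-di-GMP (2 higher, 1 lower) and 2 under DMSO (1 higher, 1 lower), and moved the median of all genes to 0.46 and -0.62. Array weights, equal within each group and 0.109 for both knockout DMSO arrays, gave 13 under c-di-GMP, 4 under DMSO and 3 in the wild-type response. Fits on only the arrays compared gave 13, 2 and 1. Under c-di-GMP the calls over all genes, 1328 in the main fit, moved the same way. They rose with array weights and with fits on only the arrays compared, and fell with median scaling. These shifts in the transporter counts under c-di-GMP are therefore not particular to the transporters. The other counts in this section stand without the share of all genes and are not read as results about the transporters. The authors' normalized table and no background correction gave 1 each in the wild-type response. Slc7a3 under DMSO turned to 0.55 without the first knockout DMSO array, against -0.05 with all arrays and -0.71 without the second. Same-numbered arrays shared only a number (correlations of their deviations 0.01 to 0.06), and a replicate block gave 7, 6, 0, 0 and 0 calls, ending those of Slc38a2 under c-di-GMP (adjusted p = 0.0562) and Slc6a9 under DMSO (0.0574). Leaving out the second knockout DMSO array together with median scaling, chosen after seeing the data, gave 6, 5, 0, 0 and 0. The causes were not tested. Readings at background, on the arrays without detection, limit the 13 genes detected on 5 or fewer arrays. Slc1a6 and Slc7a3, detected on 8 and 7 arrays, also had low signals, of 110.1 to 246.5 and 105.8 to 223.1.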
